A study of Mus musculus with 4 samples.

Results

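The proteasome is the large protease that degrades proteins tagged with ubiquitin. Its 20S core is a barrel of outer alpha rings, which gate the entry, and inner beta rings, which carry the catalytic sites. The 19S regulator caps the barrel, recognises ubiquitin and unfolds the substrate with a ring of ATPases, and the PA28 and PA200 activators are alternative caps that open the gate without ATP. In macrophages given inflammatory signals, inducible catalytic subunits replace the standard ones, and the resulting immunoproteasome is known for making peptides for antigen presentation.

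The genes described here are the 35 standard proteasome genes named by symbol: 7 of the alpha ring (Psma1 to Psma7), 7 of the beta ring (Psmb1 to Psmb7), 6 ATPases (Psmc1 to Psmc6), 11 other 19S subunits (Psmd1, 2, 3, 4, 6, 7, 8, 11, 12, 13 and 14) and 4 activator subunits (Psme1 to Psme4). They were found by gene identifier among 52550 entries in the count tables, and all 35 passed the filter on low counts. The rule that picks them uses gene symbols and no expression value, but it was set with earlier results of these data known. The label "constitutive" describes only some of them in these cells: Psme1, Psme2 and Psma5 changed with LPS by fitted folds close to those of the inducible subunits, as given below.

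Polyadenylated RNA was measured in macrophages that had been differentiated from the bone marrow of C57BL/6 mice aged 8 to 10 weeks. There were 4 groups of 1 library each: miR-7 deficient with LPS, wild type with LPS, miR-7 deficient unstimulated and wild type unstimulated. LPS, the bacterial outer-membrane lipid sensed by Toll-like receptor 4, was given at 100 ng/mL for 12 h. The sources used here do not state how the miR-7 deficiency was produced, which sex was used or how many mice stand behind a library, and mature miR-7, which has no poly(A) tail, was not measured. With LPS, total gene counts were 42074624 (deficient) and 39178290 (wild type), and without LPS they were 33937823 (deficient) and 40745230 (wild type). The 35 genes took 0.446% of these counts in the deficient and 0.465% in the wild-type LPS library, against 0.300% in the deficient and 0.318% in the wild-type unstimulated library. With 1 library a group there is no replicate error: the p-values below use the pairs of libraries as stand-ins for replicates and so compare libraries, not conditions.

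Of 8 macrophage markers, none was at 0 in any library. Their summed level was 11274 to 13236 CPM (counts relative to library size after TMM scaling) with LPS and 20310 to 20712 CPM without, most of it Lyz2. Lyz2, Cd68, Itgam and C5ar1 were lower with LPS in both genotypes, and Mertk and Spi1 in wild-type cells only. Adgre1 had 904 CPM in deficient and 923 CPM in wild-type cells with LPS, against 387 CPM and 429 CPM without. Fcgr1 had 423 CPM and 404 CPM in the deficient and wild-type LPS libraries, against 23.8 CPM and 52.7 CPM without. Without LPS, Itgam had 291 CPM in deficient and 967 CPM in wild-type cells. The 5 dendritic cell markers summed to 159 to 325 CPM with LPS, mostly Ccr7, and 28.7 to 37.0 CPM without, mostly Clec9a. Clec9a was at 1.31 CPM in deficient and 4.35 CPM in wild-type cells with LPS, against 29.9 CPM and 23.1 CPM without. Zbtb46 was at 5.43 CPM and 4.17 CPM in the deficient and wild-type LPS libraries, against 3.09 CPM and 1.22 CPM without. Xcr1 was at 2.11 CPM and 2.54 CPM with LPS and 0 without, and Flt3 was at 0 in every library. The 4 mast cell markers summed to 125 to 131 CPM with LPS and 0.255 to 3.15 CPM without, nearly all Hdc, with Tpsb2 and Mcpt4 at 0 in every library. The 8 neutrophil markers summed to 9.55 to 11.2 CPM with LPS and 5.84 to 5.87 CPM without. The T cell, B cell, fibroblast and erythroid lists each summed to at most 5.74 CPM in any library. The part of these shifts in the LPS results was not tested, and in bulk RNA fewer cells of a type and less RNA per cell cannot be told apart.

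Messenger RNA of most standard proteasome genes was higher in the LPS libraries. In the model of all 4 libraries (edgeR's quasi-likelihood test, Benjamini-Hochberg adjustment over 12730 genes), 27 of 35 genes (77.1%) rose with LPS and 0 fell, while over all tested genes 18.0% were called higher and 16.3% lower. Fitted folds of the 27 ran from 1.57 for Psmb3 to 7.42 for Psme2. The calls covered 7 of 7 alpha-ring genes, 5 of 7 beta-ring genes, 5 of 6 ATPases, 7 of 11 other 19S genes and 3 of 4 activators. The 8 that did not pass were Psmb1, Psmb2, Psmc3, Psmd2, Psmd6, Psmd8, Psmd13 and Psme3. Both LPS libraries lay above both unstimulated libraries for 34 of the 35 genes, against 33.7% of all tested genes, with Psmd8 as the exception. Under scaling to total counts, which lowers the median log2 LPS ratio of all genes by 0.44 in the wild-type pair and 0.38 in the deficient pair, the calls dropped to 13 (12.2% of all tested genes), and Psmb1, Psmb2, Psmc3, Psmd2, Psmd6, Psmd8 and Psme3 took negative fitted values without passing the test. Without the wild-type unstimulated library 9 genes were called (8.97% of all tested genes), and without the deficient unstimulated library also 9 (10.1%).

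**Figure D1:**
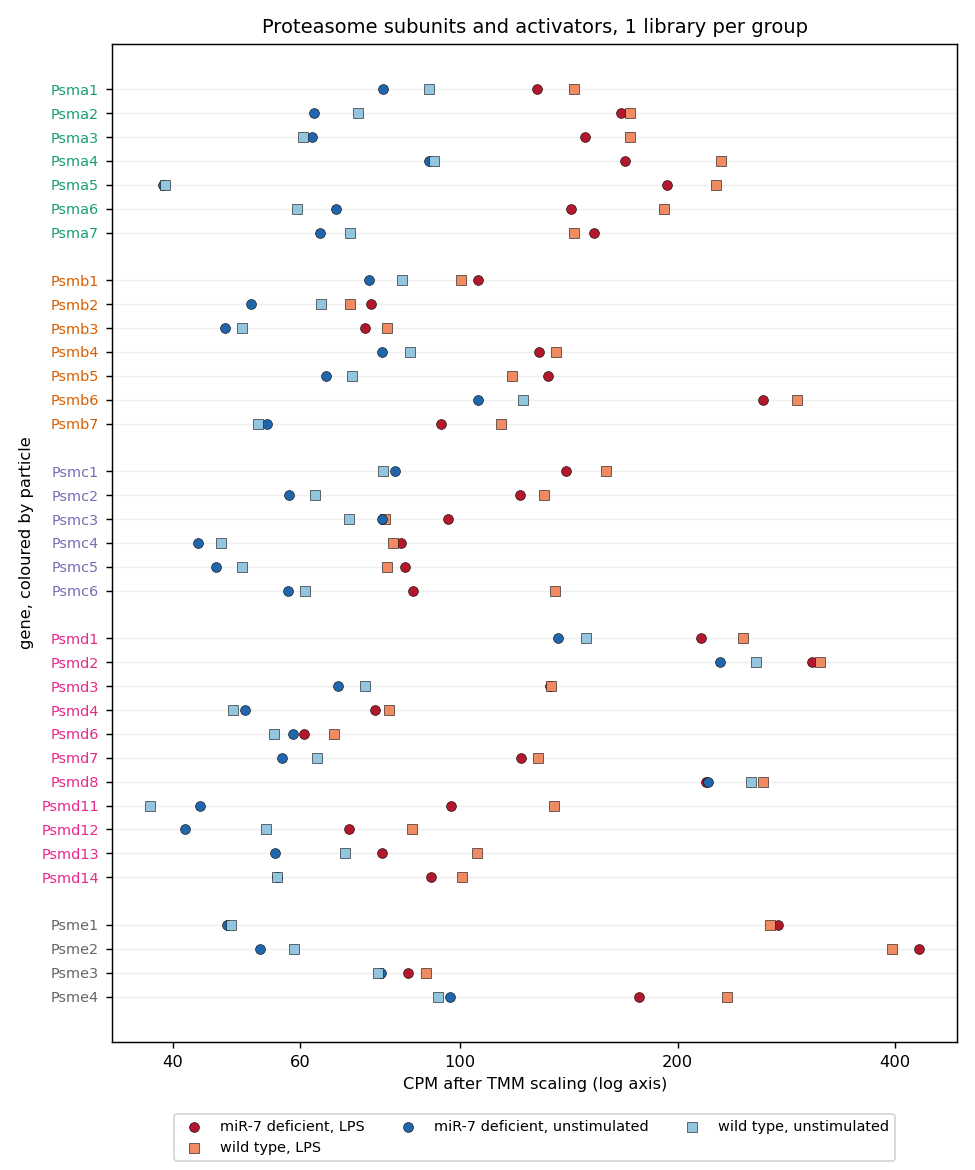
CPM after TMM scaling (log axis) of each of the 35 genes, grouped by particle, with 1 point per library: circles are miR-7 deficient, squares wild type, red tones LPS, blue tones unstimulated. The red points lie right of the blue ones for 34 genes, Psmd8 being the exception; under scaling to total counts 7 genes that did not pass the test had negative fitted LPS values.

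**Figure D2:**
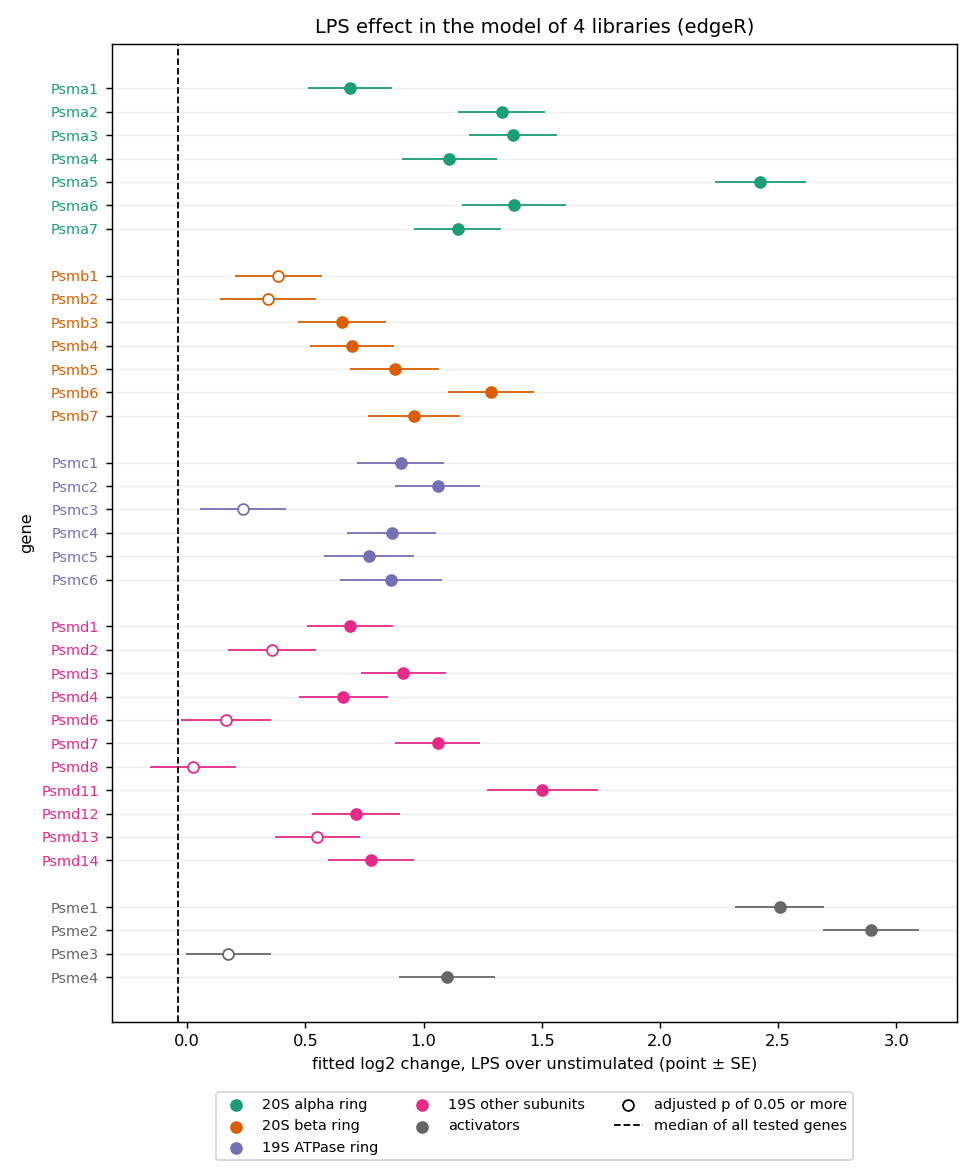
Fitted log2 change with LPS (point ± SE, n = 4 libraries) of each gene in the additive model; open circles had an adjusted p of 0.05 or more, and the dashed line is the median of all tested genes, -0.04. Psme2, Psme1 and Psma5 stand apart at 2.89, 2.51 and 2.42; under scaling to total counts the open circles other than Psmd13 take negative values.

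The activators included the genes with the largest LPS changes and, in Psme3, a gene that did not pass the test. Psme2, the beta subunit of PA28, had 432 CPM in deficient and 397 CPM in wild-type cells with LPS, against 52.8 CPM in deficient and 58.8 CPM in wild-type cells without. Psme1, its alpha subunit partner, had 276 CPM in deficient and 269 CPM in wild-type cells with LPS, against 47.5 CPM and 48.3 CPM in the deficient and wild-type cells without. For both genes the LPS libraries lay far above the unstimulated ones, and the genotypes lay close together under each condition. The fitted LPS change was 2.89 ± 0.20 (SE) on the log2 scale for Psme2 (adjusted p = 0.000309) and 2.51 ± 0.19 for Psme1 (adjusted p = 0.00037), the highest and second highest of the 35 genes. In the single pairs the Psme2 fold was 8.17 in deficient and 6.75 in wild-type cells, and the Psme1 fold was 5.80 in deficient and 5.57 in wild-type cells.

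Psme3, which forms the nuclear homologue of PA28 on its own, did not pass the LPS test. It had 84.8 CPM in deficient and 89.8 CPM in wild-type cells with LPS, against 77.7 CPM in deficient and 76.9 CPM in wild-type cells without. The fitted change was 0.17 ± 0.18 (adjusted p = 0.496), and it was negative, -0.23, under scaling to total counts. Within a library, where scaling has no part, levels of different genes were compared per length, as counts per kilobase of merged exons. The level of Psme1 was 4.34 times that of Psme3 in the deficient and 3.996 times in the wild-type LPS library, against 0.816 times in the deficient and 0.837 times in the wild-type unstimulated library. The level of Psme2 was 8.51 times that of Psme3 in the deficient and 7.39 times in the wild-type LPS library, against 1.14 times in the deficient and 1.28 times in the wild-type unstimulated library. By merged exons, both PA28 genes thus lay above Psme3 in the LPS libraries and within 1.5-fold of it in the unstimulated ones. By the longest transcript, Psme2 lay beyond 1.5-fold above Psme3 in the unstimulated libraries too. Its level was 153 against 81.2 in the deficient and 168 against 79.4 in the wild-type unstimulated library.

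Psme4, the single-chain nuclear activator PA200, rose as well. It had 177 CPM in deficient and 234 CPM in wild-type cells with LPS, against 96.9 CPM in deficient and 93.2 CPM in wild-type cells without. The fitted change was 1.10 ± 0.20 (adjusted p = 0.00872).

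Psme1 and Psme2 are neighbours on mouse chromosome 14, on opposite strands. In GENCODE M21 on GRCm38, Psme1 spans 55578123 to 55581529 on the plus strand and Psme2 spans 55587441 to 55591113 on the minus strand. Promoter windows of the PA28 genes and of Psme3, from 250 bases before to 50 after the RefSeq start (GRCm38.p6), are shown because they belong to the genes with the largest LPS changes and to their homologue that did not pass the test. The 2 annotations differ in the start of Psme1, so its window lies wholly within that span. Capitals mark matches, on either strand, to the 3 motifs described after the sequences. For Psme2 the table holds a second, overlapping window, and neither holds a match. The Psme1 window is chr14:55578244-55578543 on the plus strand, that of Psme2 chr14:55591052-55591351 on the minus strand and that of Psme3 chr11:101315963-101316262 on the plus strand.
Psme1: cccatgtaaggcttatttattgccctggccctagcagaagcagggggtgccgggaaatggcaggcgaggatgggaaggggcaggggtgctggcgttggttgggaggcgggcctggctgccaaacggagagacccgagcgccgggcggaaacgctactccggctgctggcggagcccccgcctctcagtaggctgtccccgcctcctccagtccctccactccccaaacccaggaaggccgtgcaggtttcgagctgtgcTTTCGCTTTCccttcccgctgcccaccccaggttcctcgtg
Psme2: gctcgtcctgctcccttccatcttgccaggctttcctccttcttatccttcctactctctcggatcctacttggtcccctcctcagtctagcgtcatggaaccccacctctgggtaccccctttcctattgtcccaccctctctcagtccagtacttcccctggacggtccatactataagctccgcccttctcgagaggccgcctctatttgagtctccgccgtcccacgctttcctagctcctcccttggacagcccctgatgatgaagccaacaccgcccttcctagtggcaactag
Psme3: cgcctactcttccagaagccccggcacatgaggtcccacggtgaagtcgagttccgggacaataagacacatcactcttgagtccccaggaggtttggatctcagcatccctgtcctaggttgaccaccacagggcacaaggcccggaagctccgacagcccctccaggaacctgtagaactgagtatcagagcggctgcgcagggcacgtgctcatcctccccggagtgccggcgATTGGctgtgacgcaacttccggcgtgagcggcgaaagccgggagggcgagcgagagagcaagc
The capitals in Psme1 match GAAA followed after 2 bases by a further GAAA, a pattern of interferon response elements, on the reverse strand, and those in Psme3 match CCAAT, bound by NF-Y, on the reverse strand. Such windows were matched for 29 of the 35 genes. The paired GAAA pattern occurred in 3 of 29 (10.3%), namely Psmb3, Psmd4 and Psme1, against 3.99% of all 27025 genes with a window in the table. TGACNNNGC, a pattern bound by NRF1 and NRF2, occurred in 5 of 29 (17.2%), namely Psmb5, Psmb6, Psmc6, Psmd12 and Psme4, against 13.99% of all genes. CCAAT occurred in 11 of 29 (37.9%) against 41.1% of all genes. A match is only a description of these letters, and matches of different motifs were counted whether or not they overlapped.

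All 7 alpha-ring genes rose with LPS, with a median fitted log2 change of 1.33 beside -0.04 over all tested genes. Psma5 stood apart from the rest of its ring. It had 193 CPM in deficient and 226 CPM in wild-type cells with LPS, against 38.8 CPM in deficient and 39.0 CPM in wild-type cells without. Its fitted change was 2.42 ± 0.19 (adjusted p = 0.000437, fold 5.37). Per length, its level of 398 in the deficient and 445 in the wild-type LPS library was the highest of the ring by merged exons. By that length Psma6 was highest in both unstimulated libraries. By the longest transcript Psma5 remained highest in the deficient LPS library. In the wild-type LPS library Psma4 (412) and Psma6 (384) then lay above Psma5 (380). Psma4 was then highest in both unstimulated libraries, at 216 in the deficient and 217 in the wild-type library. The next in fitted change were Psma6 at 1.38 ± 0.22 (adjusted p = 0.00493), Psma3 at 1.38 ± 0.19 (adjusted p = 0.00273) and Psma2 at 1.33 ± 0.18 (adjusted p = 0.00287). Psma6 had 142 CPM in deficient and 191 CPM in wild-type cells with LPS, against 67.2 CPM and 59.5 CPM in the deficient and wild-type cells without. Psma3 had 149 CPM in deficient and 172 CPM in wild-type cells with LPS, against 62.4 CPM and 60.7 CPM in the deficient and wild-type cells without. The alpha-ring gene with the smallest change was Psma1, at 0.69 ± 0.18 (adjusted p = 0.0277), with 128 CPM in deficient and 144 CPM in wild-type cells with LPS, against 78.1 CPM and 90.5 CPM in the deficient and wild-type cells without.

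In the beta ring, 5 of 7 genes rose, and the median fitted change was 0.70. The 3 genes of the standard catalytic sites were the 3 with the largest changes of the ring. Psmb6, the caspase-like subunit, had 262 CPM in deficient and 293 CPM in wild-type cells with LPS, against 106 CPM in deficient and 122 CPM in wild-type cells without, a fitted change of 1.28 ± 0.18 (adjusted p = 0.0032). Psmb7, the trypsin-like subunit, had 94.0 CPM in deficient and 114 CPM in wild-type cells with LPS, against 54.0 CPM and 52.5 CPM in the deficient and wild-type cells without, a fitted change of 0.96 ± 0.19 (adjusted p = 0.0116). Psmb5, the chymotrypsin-like subunit, had 132 CPM in deficient and 118 CPM in wild-type cells with LPS, against 65.2 CPM and 70.8 CPM in the deficient and wild-type cells without, a fitted change of 0.88 ± 0.19 (adjusted p = 0.0144). So mRNA of the standard catalytic subunits was higher, not lower, in the LPS libraries.

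The structural beta subunits changed less. Psmb4 (0.70 ± 0.18, adjusted p = 0.0267) and Psmb3 (0.66 ± 0.19, adjusted p = 0.038) passed the test. Psmb1 (0.39 ± 0.18, adjusted p = 0.158) and Psmb2 (0.34 ± 0.20, adjusted p = 0.241) did not, and both were slightly negative under scaling to total counts. Psmb2 had 75.3 CPM in deficient and 70.5 CPM in wild-type cells with LPS, against 51.4 CPM in deficient and 64.1 CPM in wild-type cells without. Genes whose products enter the same core in equal number were unequal in their change: the ratio of the Psma5 to the Psmb2 level per length within a library was 2.34 and 2.92 in the deficient and wild-type LPS libraries, against 0.689 and 0.554 in the deficient and wild-type unstimulated ones.

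The inducible counterparts all rose, 3 of 3. Psmb10, which takes the beta2 position of Psmb7, had 339.5 CPM in deficient and 271 CPM in wild-type cells with LPS, against 46.7 CPM and 55.2 CPM in the deficient and wild-type cells without (2.58 ± 0.22, adjusted p = 0.000578). Psmb9, of the beta1 position, had 131 CPM in deficient and 125 CPM in wild-type cells with LPS, against 19.6 CPM and 26.3 CPM in the deficient and wild-type cells without (2.49 ± 0.22, adjusted p = 0.000581). Psmb8, of the beta5 position, had 448 CPM in deficient and 398 CPM in wild-type cells with LPS, against 72.1 CPM and 85.7 CPM in the deficient and wild-type cells without (2.43 ± 0.21, adjusted p = 0.000578). These fitted changes lie beside the 2.42 of Psma5 and the 2.51 and 2.89 of the PA28 genes. No test of the differences between genes was made.

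The shares of the catalytic genes were likewise taken from levels per length, here rescaled to the same sum in each library. At the beta2 position, Psmb10 made up 87.9% of the summed level of Psmb10 and Psmb7 in the deficient and 82.7% in the wild-type LPS library, against 63.4% in the deficient and 67.8% in the wild-type unstimulated library. At the beta5 position, the share of Psmb8 was 47.4% and 47.3% in the deficient and wild-type LPS libraries, against 22.7% and 24.4% in the deficient and wild-type unstimulated libraries. At the beta1 position, the share of Psmb9 was 20.4% and 17.9% in the deficient and wild-type LPS libraries, against 8.66% and 9.91% in the deficient and wild-type unstimulated libraries. The inducible share was larger in both LPS libraries at every position, although the standard gene rose too. The size of a share depends on the gene length used: with the longest transcript, Psmb8 came to 61.5% and 61.4% in the deficient and wild-type LPS libraries, and Psmb9 to 14.4% and 12.5%.

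**Figure D3:**
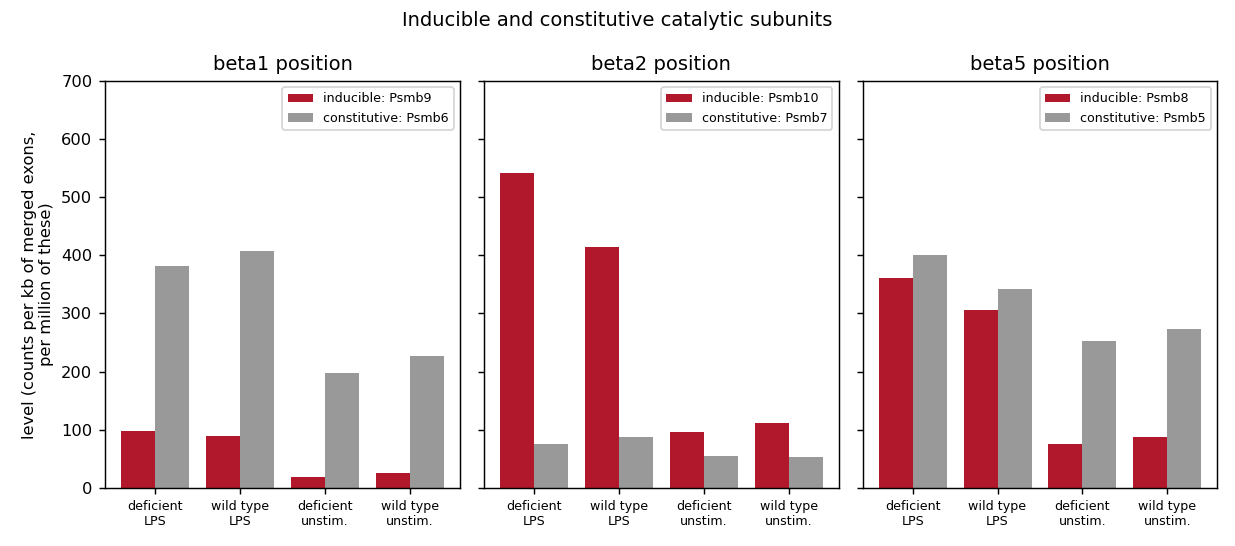
Level per length (counts per kilobase of merged exons, rescaled to the same sum in each library) of the inducible (red) and standard (grey) gene at each catalytic position, 1 bar per library with no replicates. The red bar is taller in both LPS libraries at all 3 positions, and exceeds the grey one in every library only at beta2, where Psmb10 made up 63.4% to 87.9%.

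Of the 6 ATPases, which form the unfolding ring of the 19S base, 5 rose, and the median fitted change was 0.86. The values were close together: Psmc2 was fitted at 1.06 ± 0.18 (adjusted p = 0.0063), Psmc1 at 0.90 ± 0.18 (adjusted p = 0.0123), Psmc4 at 0.86 ± 0.19 (adjusted p = 0.0155), Psmc6 at 0.86 ± 0.22 (adjusted p = 0.0248) and Psmc5 at 0.77 ± 0.19 (adjusted p = 0.024). Psmc3 did not pass, at 0.23 ± 0.18 (adjusted p = 0.363), and was negative, -0.17, under scaling to total counts. It had 96.3 CPM in deficient and 78.8 CPM in wild-type cells with LPS, against 77.9 CPM in deficient and 70.3 CPM in wild-type cells without.

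Of the other 19S subunits 7 of 11 were called higher, with a median fitted change of 0.69. Psmd11, which clamps the regulator to the core, had the largest change, 1.503 ± 0.23 (adjusted p = 0.00466). It had 97.1 CPM in deficient and 135 CPM in wild-type cells with LPS, against 43.7 CPM in deficient and 37.3 CPM in wild-type cells without. Psmd7 and Psmd14 form the deubiquitinase pair of the lid, of which Psmd14 carries the active site: Psmd7 was fitted at 1.06 ± 0.18 (adjusted p = 0.00639) and Psmd14 at 0.78 ± 0.18 (adjusted p = 0.0204). Psmd3 and Psmd12, both structural subunits of the lid, were fitted at 0.91 ± 0.18 (adjusted p = 0.0107) and 0.71 ± 0.19 (adjusted p = 0.029). Psmd4, a receptor for ubiquitin chains, was fitted at 0.66 ± 0.19 (adjusted p = 0.0377).

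The large scaffold subunits of the base differed in their calls. Psmd1 passed at 0.69 ± 0.18 (adjusted p = 0.0289), and Psmd2 did not, at 0.36 ± 0.19 (adjusted p = 0.187). Psmd13, a lid subunit, lay just outside the threshold at 0.55 ± 0.18 (adjusted p = 0.0603) and was called by DESeq2's Wald test. Psmd6 and Psmd8, also of the lid, had the smallest changes of this group. Psmd6 was fitted at 0.16 ± 0.19 (adjusted p = 0.55), with 60.8 CPM in deficient and 66.9 CPM in wild-type cells with LPS, against 58.7 CPM in deficient and 55.2 CPM in wild-type cells without. Psmd8 was fitted at 0.03 ± 0.18 (adjusted p = 0.927), the lowest of the 35 genes. It had 219 CPM in deficient and 263 CPM in wild-type cells with LPS, against 220.2 CPM in deficient and 252 CPM in wild-type cells without, so its LPS and unstimulated libraries overlapped. Under scaling to total counts Psmd2, Psmd6 and Psmd8 took negative values, -0.05, -0.25 and -0.38, without passing the test.

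The order of the levels per length differed between LPS and unstimulated libraries. Psme2 was the highest of the 35 genes in both LPS libraries, at 666 in the deficient and 586 in the wild-type library, against 105 and 116 in the deficient and wild-type unstimulated libraries. In the unstimulated libraries the highest were Psmb5 in the deficient library, at 253, and Psmd8 in the wild-type library, at 286. Psmd11 was the lowest in all 4 libraries, at 41.4 and 55.0 in the deficient and wild-type LPS libraries and 23.9 and 20.2 in the deficient and wild-type unstimulated libraries. With the longest transcript as length Psme2 remained highest in both LPS libraries, but Psme4 and Psme3 were the lowest there. Without LPS, Psmd8 was then highest in both genotypes, at 309 in deficient and 350 in wild-type cells. Psmb5 then had a level of 202 in deficient cells without LPS. So the bottom of the order with LPS, and its top in unstimulated deficient cells, depend on gene models.

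Other genes of the pathway were read from lists of related factors. Of 8 tested assembly chaperones 3 rose: Pomp, which matures the core, at 1.09 ± 0.18 (adjusted p = 0.00595), and Psmd10 and Psmd5, which assemble the 19S base, at 1.61 ± 0.21 (adjusted p = 0.00242) and 1.06 ± 0.26 (adjusted p = 0.0248). Psmd9 and Psmg1 to Psmg4, counted at 3.23 to 17.6 CPM, did not pass, and the list's median was -0.03. Pomp had 122 CPM in deficient and 134 CPM in wild-type cells with LPS, against 60.5 CPM and 59.9 CPM in the deficient and wild-type cells without. Of 4 other 19S parts and deubiquitinases, Adrm1, a ubiquitin receptor, rose (0.81 ± 0.19, adjusted p = 0.0215), and Sem1, Uchl5 and Usp14 did not pass, Usp14 being fitted at -0.19 ± 0.20 (adjusted p = 0.512). Of the inhibitor and adaptor genes, Ecpas, an adaptor that binds core and regulator, rose (1.95 ± 0.35, adjusted p = 0.00808) and Psmf1 did not pass (0.47 ± 0.21, adjusted p = 0.138). Ecpas had 261 CPM in deficient and 705 CPM in wild-type cells with LPS, against 109 CPM and 113 CPM in the deficient and wild-type cells without.

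Nfe2l1, the transcription factor known to raise proteasome genes when proteasome activity is short, rose (1.27 ± 0.18, adjusted p = 0.00336). It had 141 CPM in deficient and 100.4 CPM in wild-type cells with LPS, against 55.6 CPM and 43.4 CPM in the deficient and wild-type cells without. Ddi2, the protease that cleaves and activates that factor, fell (-1.31 ± 0.19, adjusted p = 0.00334). It had 34.1 CPM in deficient and 37.7 CPM in wild-type cells with LPS, against 84.4 CPM and 94.1 CPM in the deficient and wild-type cells without. Nfe2l2, the related antioxidant factor, did not pass (0.57 ± 0.27, adjusted p = 0.156). It had 699.7 CPM in deficient and 744 CPM in wild-type cells with LPS, against 649.9 CPM and 362 CPM in the deficient and wild-type cells without, so the wild-type unstimulated library stood alone at the low end. Ngly1 and the 4 shuttle factors other than Ddi2 did not pass, the most abundant being Rad23b at 0.59 ± 0.21 (adjusted p = 0.0795) and Ubqln1 at 0.49 ± 0.18 (adjusted p = 0.0803). Uba1, the main ubiquitin-activating enzyme, rose at 1.06 ± 0.19 (adjusted p = 0.00823), and Ubb, a polyubiquitin gene, rose at 0.89 ± 0.20 (adjusted p = 0.0185). Rps27a, which encodes ubiquitin fused to a ribosomal protein, was fitted at -0.49 ± 0.18 (adjusted p = 0.083) and did not pass.

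Between genotypes, none of the 35 genes was called in either direction, while 0.385% of all tested genes were called higher and 0.165% lower in deficient cells. With edgeR, 0 of the 35 genes had an unadjusted p under 0.05, against 7.60% of all tested genes, and DESeq2's Wald test also called 0 of them. The fitted values ran from -0.38 for Psmd13 to 0.22 for Psmc3. Psmd13 had 78.1 CPM in deficient and 106 CPM in wild-type cells with LPS, and 55.4 CPM in deficient and 69.4 CPM in wild-type cells without (-0.38 ± 0.18, adjusted p = 0.745, unadjusted p = 0.0797). Psmd12 had 70.2 CPM in deficient and 85.9 CPM in wild-type cells with LPS, and 41.7 CPM in deficient and 53.8 CPM in wild-type cells without (-0.33 ± 0.19, adjusted p = 0.836). Psmc3, at the other end, was fitted at 0.22 ± 0.18 (adjusted p = 0.93), with the deficient library higher in both pairs. Psmb5 at 0.02 ± 0.19 and Psme1 at 0.01 ± 0.18 had the next highest values, and both took small negative values under DESeq2's size factors. A p here does not measure the spread between mice. Its error comes in part from how alike the genotype differences were in the LPS and unstimulated pairs, with 1 residual degree of freedom. The larger part, 5.18 prior degrees of freedom, is borrowed from other genes.

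In single pairs, the deficient-to-wild-type fold with LPS ran from 0.636 for Psmc6 to 1.22 for Psmc3, with a median of 0.929 and 26 of 35 genes below 1. Without LPS it ran from 0.774 for Psmd12 to 1.17 for Psmd11, with a median of 0.922 and 25 genes below 1. Over all 12730 tested genes, 6555 had a finite ratio above 1 with LPS and 6292 without. Their median log2 ratio was 0.02 with LPS and -0.0005 without. The medians of the 35 genes lie close to 1 beside their LPS folds, which had a median of 1.74 in deficient and 1.803 in wild-type cells. By the 95% counting interval, Psmc6 alone lay wholly beyond 1.5-fold lower in deficient cells with LPS (1 of 35, against 6.85% of all tested genes), and 0 genes did so without LPS (3.29%). No gene lay beyond 1.5-fold higher with LPS (6.24%) or without (6.47%). Psmc6 had 86.0 CPM in deficient and 135 CPM in wild-type cells with LPS, against 57.8 CPM in deficient and 61.1 CPM in wild-type cells without. Such intervals cover counting error only.

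**Figure D4:**
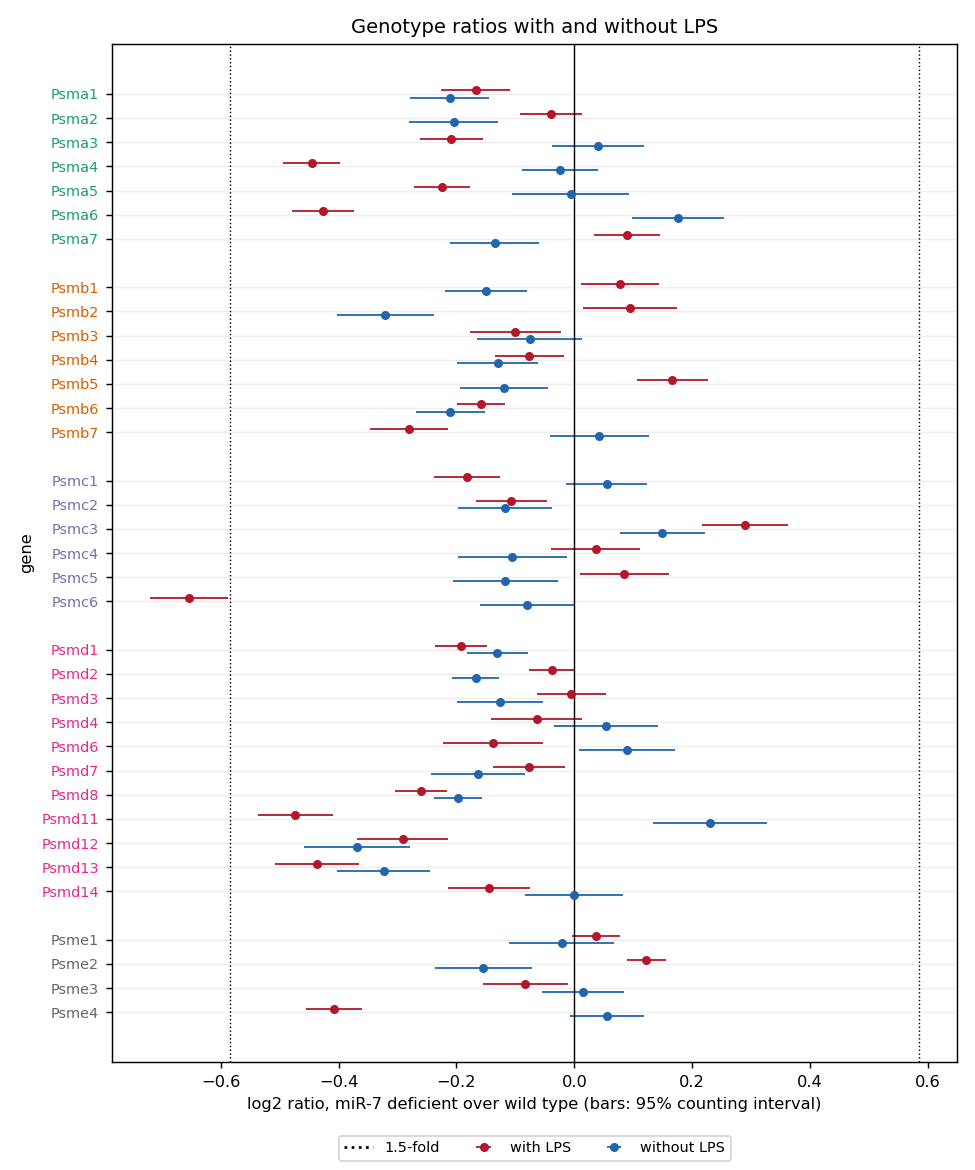
Log2 ratio of miR-7 deficient over wild type for each gene with LPS (red) and without (blue); bars are 95% counting intervals and dotted lines mark 1.5-fold. Only the Psmc6 ratio with LPS (fold 0.636) lies wholly beyond a dotted line.

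The series was made to find genes that miR-7 lowers, and PSME3 is a reported miR-7 target in human cancer cells. MicroRNAs bind mRNA through their seed, so the 3′ UTRs were searched for GTCTTCC, the complement of bases 2 to 8 of miR-7a-5p (chr13:58392841-58392863, minus strand, GRCm38), on the strand of the mRNA. The match occurred in the longest annotated 3′ UTR of 3 of 35 genes (8.57%), against 2719 of 21123 protein-coding genes (12.9%). These 3′ UTRs had a median of 335 bases in the 35 genes and 1085 bases in all protein-coding genes. The shares were not corrected for length, so they do not show that sites are rarer in the 35 genes. The sites are shown with the microRNA because they are the stretches to which a direct effect would be tied; capitals mark the seed in the first line and its match in the others. The Psme3 site lies at chr11:101323196-101323223, that of Psmc6 at chr14:45349254-45349281 and that of Psma3 at chr12:70995919-70995946, all in the 3′ UTR on the plus strand.
miR-7a-5p: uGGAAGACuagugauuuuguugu
Psme3: ttttattcctctccGTCTTCCaatccca
Psmc6: atacatgtacttgtGTCTTCCaagaaat
Psma3: ttgaggcagggtagGTCTTCCtacataa
In Psme3 and Psmc6 the match is followed by A, and in Psma3 by T. The deficient-to-wild-type fold of Psme3 was 0.944 with LPS and 1.01 without, and its fitted genotype value was -0.03 ± 0.18 (adjusted p = 0.996), so no difference was detectable at this number of libraries. Psma3 had a fold of 0.865 with LPS and 1.03 without (-0.08 ± 0.18, adjusted p = 0.993). Psmc6 had a fold of 0.636 with LPS and 0.946 without (-0.37 ± 0.21, adjusted p = 0.851). None of the 3 genes with a site was called higher in deficient cells. Only 0.385% of all tested genes were, so the lack of a call among 3 genes says little about them.

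The LPS effect was compared between genotypes as the deficient LPS ratio over the wild-type LPS ratio, with no test, since 1 library a group leaves no error for it. The ratio was larger in deficient cells for 18 genes and smaller for 17. By a 95% counting interval, 1 of 35 genes, Psmd11, lay wholly beyond 1.5-fold smaller, against 8.94% of all tested genes, and 0 genes lay beyond 1.5-fold larger, against 6.07%. For Psmd11 the LPS fold was 2.22 in deficient and 3.62 in wild-type cells, a difference of -0.70 on the log2 scale (interval -0.82 to -0.59). Psma6 had an LPS fold of 2.12 in deficient and 3.22 in wild-type cells, a difference of -0.60 (interval -0.70 to -0.51). Psmc6 had an LPS fold of 1.49 in deficient and 2.22 in wild-type cells, a difference of -0.57 (interval -0.68 to -0.47). At the other end, Psmb2 had an LPS fold of 1.47 in deficient and 1.10 in wild-type cells, a difference of 0.41 (interval 0.30 to 0.53). The adaptor Ecpas, outside the 35 genes, had an LPS fold of 2.39 in deficient and 6.23 in wild-type cells, a difference of -1.38 (interval -1.45 to -1.32).

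Pair by pair, 24 of 35 genes lay wholly beyond 1.5-fold higher with LPS in deficient cells, against 18.9% of all tested genes, and 27 did so in wild-type cells, against 22.7%. None lay beyond 1.5-fold lower in deficient or wild-type cells, against 19.9% and 21.6% of all tested genes in the deficient and wild-type pairs. In deficient cells the median log2 ratio was 1.70 for the activators, 1.25 for the alpha ring, 0.83 for the ATPases, 0.72 for the beta ring and 0.66 for the other 19S subunits. In wild-type cells it was 1.90 for the activators, 1.32 for the alpha ring, 0.91 for the ATPases, 0.67 for the beta ring and 0.72 for the other 19S subunits. With all 35 genes, the particles kept the same order in both genotypes except for the last places, held by the beta ring in wild-type and the other 19S subunits in deficient cells. Without genes that share exonic bases the first place changed in deficient cells, as given below.

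**Figure D5:**
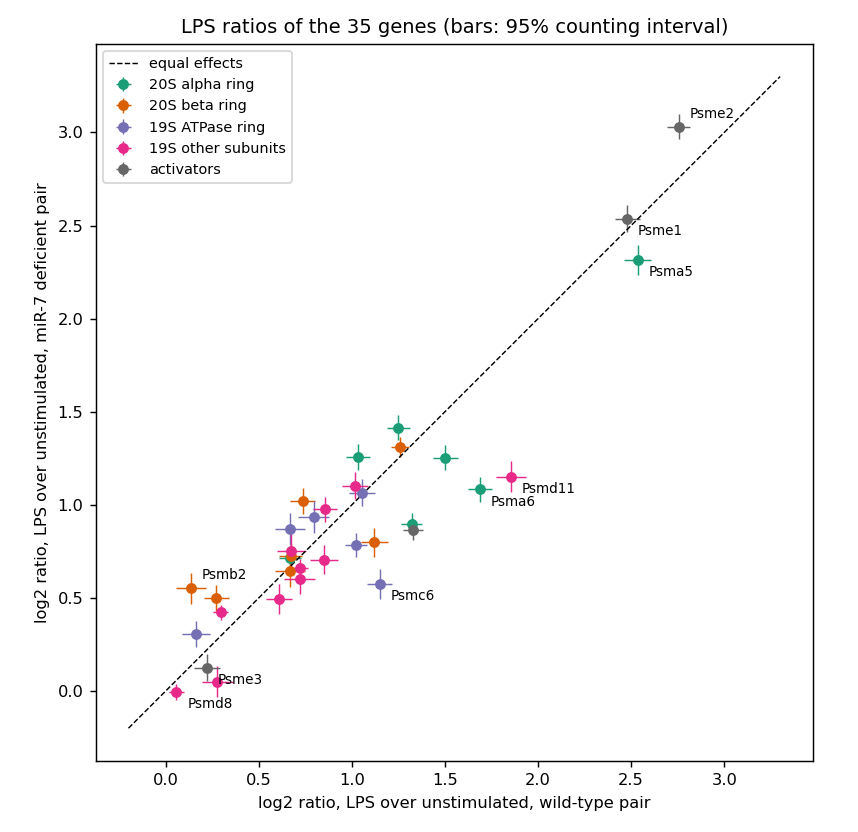
Log2 LPS ratio of each gene in the miR-7 deficient pair (y axis) and the wild-type pair (x axis), coloured by particle, with 95% counting intervals; the dashed line marks equal effects. Psmd11, Psma6 and Psmc6 lie below the line, with differences of -0.70, -0.60 and -0.57, and Psmb2 above it, with 0.41.

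Several of these genes have near-identical copies elsewhere, which could share or take reads. In transcripts of GENCODE M21, 14 of the 35 genes had a copy of at least 90% identity over at least 200 bases. Counts on copies were 2.65% to 17.4% of the counts of Psmd11, the highest shares being in the unstimulated libraries (16.1% in deficient and 17.4% in wild-type cells), 5.09% to 9.86% of Psme2, 5.25% to 6.46% of Psma3 and 1.33% to 2.03% of Psma5, and under 1.5% for the other 10 genes. Values of all 14 genes are uncertain for this reason, with the largest shares in Psmd11, Psme2 and Psma3. The shares do not bound the uncertainty, since the treatment of multi-mapping reads is not given. Adding the copies' counts to each gene left 27 genes called higher with LPS. Of the 35 genes, 9 also share exonic bases with another gene, at most 12.1% of their exonic length in Psmb5. Among the inducible catalytic genes, Psmb8 shares 14.7% of its exonic length with Gm20496 and Psmb9 shares 5.79% with Tap1. Copies of the inducible genes were not searched for. The inducible shares given above are uncertain for these reasons too.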

How the data were processed

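Poly(A)-enriched RNA was sequenced on an Illumina HiSeq. Per the labels' protocols and the series design text, Casava v1.8.2 and Cutadapt handled the raw reads, alignment used Bowtie2 through TopHat v2.0.13, and Partek supplied exon annotation; the submitters' processing notes name HTSeq and mm8. The values deposited by the authors are raw gene counts, not normalized, in 1 file for each of 4 libraries. The sources used here do not give the strand setting, the treatment of multi-mapping reads or the annotation release, so reads of overlapping or antisense genes and of near-identical copies may be shared. Without versions, 52403 of 52550 identifiers (99.7%) matched GENCODE M21, which supplied symbols and coordinates; promoters and the microRNA are from RefSeq (GRCm38.p6). Both are annotations of GRCm38, not of the submitters' build.

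Genes reaching a CPM of 1 in 2 libraries entered the quasi-likelihood test of edgeR 4.0.16 (R 4.3.3), with TMM scaling and genotype and LPS as additive terms. The only residual degree of freedom, 1, is their interaction, and edgeR added 5.18 prior degrees of freedom from the other genes. The biological coefficient of variation was 0.247. P-values were adjusted by Benjamini-Hochberg over all tested genes and called under 0.05. The SE is the fitted log2 value divided by the square root of F. Pairs of libraries were compared by TMM-scaled ratios with exact Clopper-Pearson 95% intervals, counted as beyond 1.5-fold where the whole interval was, and the 2 LPS ratios were divided by each other after adding 0.5 counts, with a normal interval. Intervals cover counting error only, since PCR reads are not independent molecules. Copies were found with BLAST 2.17.0. The fit was also run on simulated counts of lower, constant dispersion, without a genotype effect or interaction. That run cannot test the fit at the spread of these data. Alternatives were DESeq2 1.42.0 size factors and its Wald test, total counts, other filters, fold limits, gene lengths and added counts, leaving out shared-exon genes or a library, and, chosen after seeing the data, adding copies' counts.

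The members, lists, tests and naming rule were chosen with earlier results of these data known. By that rule all 35 genes are named, with every library's values for the 3 highest and 3 lowest by LPS and by genotype and for Psme3, and for the related lists the genes that passed and the 2 most abundant; a few list genes and a motif are not reported here. Paaf1 was not matched and is not analysed here.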

Additional observations from a re-analysis of the deposited data

How the results depend on the processing

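The 27 genes called higher with LPS became 13 under scaling to total counts and 9 to 26 when a library was left out of a model of LPS alone (9 without either unstimulated library, 19 without the wild-type LPS library, 26 without the deficient LPS library); they were 25 to 28 under the other alternatives, and 0 genes were called lower under any. Calls of 7 genes, Psma2, Psma3, Psma5, Psma7, Psmb6, Psme1 and Psme2, held under all 10 alternatives set up for them, and 23 held under all but total counts and left-out libraries. The genes beyond 1.5-fold became 10 in the deficient and 12 in the wild-type pair at a 2-fold limit, and 11 and 12 in the deficient and wild-type pairs under total counts. The 1 gene beyond 1.5-fold lower in deficient cells with LPS became 0 in both settings. The shares of all tested genes in those settings, and for calls that held under several alternatives, are not given here.

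Under total counts the median log2 LPS ratios were 0.88 in deficient and 0.88 in wild-type cells for the alpha ring, 0.35 in deficient and 0.23 in wild-type cells for the beta ring, 0.45 in deficient and 0.47 in wild-type cells for the ATPases, 0.28 in both genotypes for the other 19S subunits, and 1.32 in deficient and 1.46 in wild-type cells for the activators. Total counts turn negative the LPS values of Psmb1 (-0.024), Psmb2 (-0.066), Psmc3 (-0.17), Psmd2 (-0.050), Psmd6 (-0.25), Psmd8 (-0.38) and Psme3 (-0.23), none called in any direction, by the shift in scale given with the calls. Without genes that share exonic bases the medians, over fewer genes, were 1.25 in wild-type cells for the alpha ring, 0.64 in deficient cells for the beta ring, 1.02 in wild-type cells for the ATPases, and 0.87 in deficient and 1.33 in wild-type cells for the activators. In deficient cells the activators then lay below the alpha ring. The activator left out was Psme1, which shares 0.634% of its exonic length. The value of Psmd8 was also negative without the wild-type LPS library (-0.09) or the deficient unstimulated library, within a range of -0.096 to 0.175 over left-out libraries.

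With the longest transcript, the inducible share at beta1 was 14.4% in the deficient and 12.5% in the wild-type LPS library, against 5.84% in the deficient and 6.72% in the wild-type unstimulated library. At beta2 it was 88.7% and 83.8% in the deficient and wild-type LPS libraries, against 65.3% and 69.5% in the deficient and wild-type unstimulated libraries. At beta5 it was 61.5% and 61.4% in the deficient and wild-type LPS libraries, against 34.3% and 36.3% in the deficient and wild-type unstimulated libraries. Genotype values near 0 changed sign: Psmb5 was at -0.0012 with DESeq2's size factors, -0.0086 without a filter, -0.0016 at a CPM of 10 or more and -0.0012 by the Wald test, Psme1 at -0.018, -0.025, -0.018 and -0.018 in those settings, and Psme3 at 0.0072 under total counts. The cause of changes other than these of scale or of gene number was not tested. No paired analysis was possible because each group has 1 library and the labels give no replicate numbers that pair them. The 35 genes had 37.3 CPM or more in every library.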
